A study of Mus musculus with 8 samples.

Results

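The 10 genes described here encode Toll-like receptors and the proteins that work closest to them: the receptors Tlr1, Tlr2, Tlr4, Tlr5, Tlr6 and Tlr13, the lipopolysaccharide (LPS) co-receptors Cd14 and Ly96, the adaptor Myd88 and the inhibitor Irak3. They were taken by gene symbol from 54532 genes listed for each liver, and all 10 were present and passed the minimum level for testing. RNA was sequenced from 8 livers, 4 of the METTL3-HKD genotype and 4 of the METTL3-Flox genotype, after 1 h of partial warm ischemia and 6 h of reperfusion (I/R), to ask how less METTL3 in hepatocytes changes the injured liver. METTL3 is the catalytic subunit of the enzyme that writes N6-methyladenosine on RNA. METTL3-HKD mice are hepatocyte-specific knockdown animals, described as heterozygous and as METTL3 flox/- with Alb-iCre. In these mice the albumin promoter drives the recombinase in hepatocytes, so the other cells of the liver are not its target. Whether other cells also carry the minus allele is not stated in the sources used here, so they may differ in METTL3 as well. METTL3-Flox littermates are METTL3 flox/flox and served as controls. Both groups underwent the same surgery, no liver without I/R was sequenced in the samples used here, and the ages at surgery were not given in the sources used here. Each library is labelled as 1 mouse, and the labels name no batch.

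Toll-like receptors sense microbial molecules and products of damaged cells. TLR4, with the protein encoded by Ly96 bound to it, recognizes LPS that CD14 hands over, while TLR2 pairs with TLR1 or TLR6 to recognize lipopeptides. TLR5 recognizes flagellin and TLR13 recognizes bacterial ribosomal RNA inside endosomes. Most of these receptors signal through MYD88 to NF-kB and to inflammatory cytokine genes, and IRAK3 restrains that signal. In the liver, Kupffer cells and infiltrating neutrophils and monocytes carry many of these proteins.

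Of the 10 genes, 6 were upregulated in METTL3-HKD livers and 0 were downregulated. The upregulated genes were Cd14, Ly96, Tlr2, Tlr4, Tlr6 and Tlr13, and the other 4 (Tlr1, Tlr5, Myd88 and Irak3) did not pass the test. Upregulated here means that 16645 genes were tested with limma and that the gene had a Benjamini-Hochberg adjusted p under 0.05 and at least doubled, which is 1 on the log2 scale. By that rule 4.70% of all genes tested were upregulated and 1.52% were downregulated. The estimated log2 fold changes of the 10 genes were all positive, with a median of 1.14, against a median of -0.003 over all genes tested. The adjusted p alone was passed by the same 6 genes, all higher in METTL3-HKD livers, as it was by 9.05% of all genes tested. For these 6 genes the lowest METTL3-HKD value exceeded the highest METTL3-Flox value, which held for 12.7% of all genes tested, while 0 members lay wholly below the controls, as 9.95% of all genes did. The number of upregulated members depended on single livers. It was 3 without METTL3-HKD liver 1 (Tlr2, Tlr6 and Cd14), 4 without METTL3-HKD liver 2, 2 without METTL3-Flox liver 2 and also without METTL3-Flox liver 4 (Tlr2 and Cd14), and 1 without METTL3-Flox liver 3 (Cd14). Without any 1 METTL3-Flox liver the log2 fold changes of all 6 genes stayed above 1, and the calls were lost on the limma adjusted p, which reached 0.0795. Without METTL3-HKD liver 1 the log2 fold changes of Tlr4 and Tlr13 fell to 0.9555 and 0.859, and without METTL3-HKD liver 2 that of Ly96 fell to 0.908. Ly96 without METTL3-HKD liver 1 and Tlr13 without METTL3-HKD liver 2 stayed above 1 but were lost on the limma adjusted p (0.075 and 0.0569). Without METTL3-HKD liver 4 the number was 5, since Tlr4 and Tlr6 were lost and Irak3 passed. Cd14 alone passed in every alternative run.

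Libraries held between 15861245 and 18434488 reads on genes. Levels are given in FPKM, fragments scaled to gene length and library size, and log2 fold changes are of FPKM plus 0.1. Mettl3 itself had 1.33 ± 0.181 FPKM in METTL3-HKD livers and 1.499 ± 0.282 FPKM in METTL3-Flox livers (SD, n = 4 each), and did not pass the test (log2 fold change -0.16, limma adjusted p = 0.556). The floxed allele has loxP sites around exon 4, and FPKM over the whole gene does not read that exon by itself. The study separately reported METTL3 ablation in liver tissue of METTL3-HKD mice, so these values do not show whether the knockdown worked. Whole liver was sequenced, so fewer cells of a type and less RNA per cell cannot be told apart.

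Bases just before a start site were available for some of the genes, among them the receptors Tlr2, Tlr6 and Tlr13, which rose. RefSeq (GRCm38.p6) gave windows of 250 bases before a start site for 7 of the 10 members. No window was available for Tlr4, Cd14 and Ly96, which also rose, so nothing is said here about their promoters. Windows were searched on both strands for a loose NF-kB pattern (GGG and CC with any 5 bases between them), an AP-1 pattern (TGANTCA) and a PU.1 pattern (GAGGAA), of which 45.8%, 6.75% and 23.3% of 32851 windows held at least 1 match. Part of each window can lie in an exon, so only exon-free bases are shown, 5′ to 3′ on the gene's strand, with the matches in capitals. The 4 stretches shown are a selection made after the search, of windows with a match before Tlr2 (chr3:83841768-83841858, minus strand), Tlr6 (chr5:64960098-64960298, minus strand) and Tlr13 (chrX:106143025-106143203, plus strand), which rose, and before Tlr5 (chr1:182954538-182954787, plus strand), which did not pass the test.
Tlr2: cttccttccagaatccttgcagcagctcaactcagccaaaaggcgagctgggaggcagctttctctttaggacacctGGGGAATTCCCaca
Tlr6: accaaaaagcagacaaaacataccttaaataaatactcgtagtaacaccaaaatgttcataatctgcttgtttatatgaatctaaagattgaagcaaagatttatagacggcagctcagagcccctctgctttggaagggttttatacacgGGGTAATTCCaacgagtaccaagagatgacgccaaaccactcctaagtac
Tlr13: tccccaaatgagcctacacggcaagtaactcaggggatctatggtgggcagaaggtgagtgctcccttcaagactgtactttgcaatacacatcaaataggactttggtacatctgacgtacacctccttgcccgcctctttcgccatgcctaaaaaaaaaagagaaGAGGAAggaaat
Tlr5: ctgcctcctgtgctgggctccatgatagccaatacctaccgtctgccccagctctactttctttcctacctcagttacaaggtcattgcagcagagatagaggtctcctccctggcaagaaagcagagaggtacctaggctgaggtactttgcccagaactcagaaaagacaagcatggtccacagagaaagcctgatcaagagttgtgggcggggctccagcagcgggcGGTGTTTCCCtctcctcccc
The NF-kB pattern occurred in the stretches of Tlr2 (2 overlapping matches), Tlr6 and Tlr5, and the PU.1 pattern in that of Tlr13. A second window of Tlr6, free of exons, held no match of any of the patterns. Of the members that did not pass the test and are not shown, Tlr1 had a PU.1 match in 1 of its 2 windows, Irak3 had 2 NF-kB matches in a window that lies in exons, and Myd88 had none. The AP-1 pattern occurred in 0 of the windows of these 7 members. A gene that rose and a gene that did not pass the test both held the NF-kB pattern, and a match of letters does not show that a factor binds there.

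**Figure D1:**
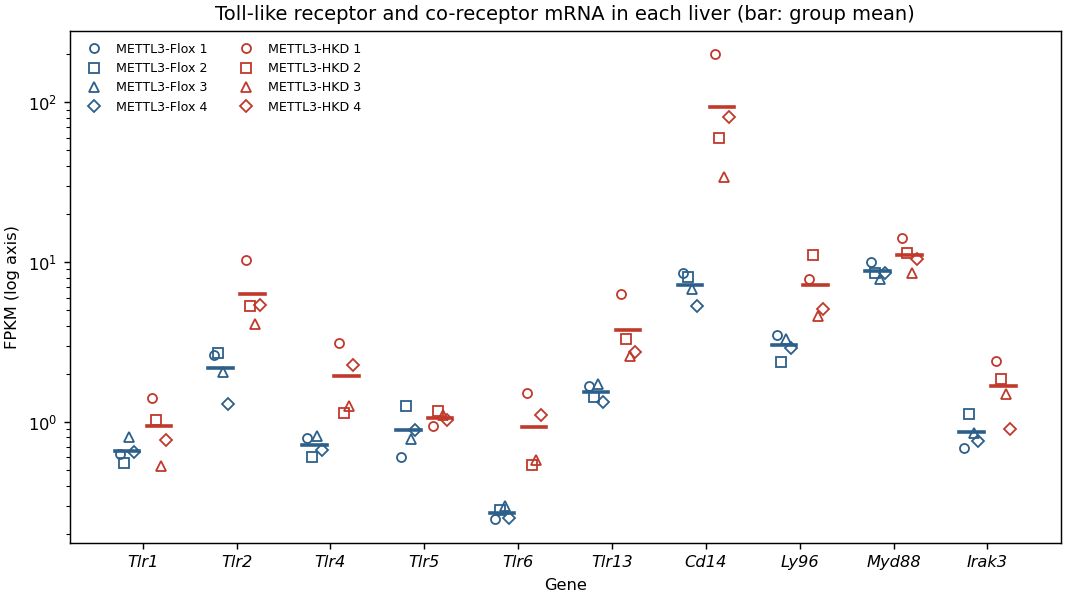
FPKM of each gene (x axis) in each liver on a log axis (y axis), with blue symbols for METTL3-Flox livers 1 to 4, red symbols for METTL3-HKD livers 1 to 4, and bars for group means. The groups do not overlap for Tlr2, Tlr4, Tlr6, Tlr13, Cd14 and Ly96.

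The LPS co-receptors were considered first. Cd14 binds LPS at the cell surface and passes it on. Its level in livers 1 to 4 of the METTL3-HKD group was 199, 59.8, 34.3 and 80.3 FPKM. In the METTL3-Flox group it was 8.51, 8.03, 6.74 and 5.30 FPKM. The lowest METTL3-HKD liver thus stood above the highest METTL3-Flox liver, but the METTL3-HKD livers differed widely among themselves. The group means were 93.3 ± 72.8 and 7.14 ± 1.44 FPKM (SD, n = 4 each), and the log2 fold change was 3.41 with a standard error of 0.45 (limma adjusted p = 0.00412). Over 18 alternatives the adjusted p of Cd14 was at most 0.0209. Ly96, whose product holds LPS against TLR4, had 7.84, 11.02, 4.61 and 5.11 FPKM in METTL3-HKD livers and 3.51, 2.36, 3.29 and 2.92 FPKM in METTL3-Flox livers. METTL3-HKD liver 2 was its highest liver, where liver 1 was the highest for Cd14. Its means were 7.15 ± 2.95 and 3.02 ± 0.502 FPKM, and its log2 fold change was 1.14 with a standard error of 0.26 (limma adjusted p = 0.0239). Between 85 and 208 reads per liver lay behind Ly96 in the METTL3-HKD group and between 39 and 51 in the METTL3-Flox group, against 973 to 6285 and 134 to 204 for Cd14. The LPS receptor Tlr4 lay at lower levels than both co-receptors, with 3.13, 1.14, 1.26 and 2.27 FPKM in METTL3-HKD livers and 0.798, 0.602, 0.817 and 0.671 FPKM in METTL3-Flox livers. METTL3-HKD livers 2 and 3 lay closest to the controls but did not overlap them. Tlr4 rose by a log2 fold change of 1.21 with a standard error of 0.30 (limma adjusted p = 0.0294), from 0.722 ± 0.103 to 1.95 ± 0.937 FPKM. For each of the 6 upregulated genes the exact permutation test of the FPKM values, two-sided, gave p = 0.0286, the smallest that the 70 arrangements of 4 against 4 livers allow.

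The receptors for lipopeptides did not all pass the test. Tlr2 had 10.4, 5.28, 4.08 and 5.36 FPKM in METTL3-HKD livers and 2.61, 2.69, 2.05 and 1.30 FPKM in METTL3-Flox livers. METTL3-HKD liver 1 was far above the other livers, and liver 3, the lowest of its group, still lay above each control. The means were 6.27 ± 2.80 and 2.16 ± 0.643 FPKM, with a log2 fold change of 1.45 and a standard error of 0.31 (limma adjusted p = 0.0179). Tlr6, one of the partners of TLR2, had 1.51, 0.537, 0.579 and 1.11 FPKM in METTL3-HKD livers and 0.245, 0.282, 0.300 and 0.250 FPKM in METTL3-Flox livers. The METTL3-Flox livers lay close together, and METTL3-HKD livers 2 and 3 were the nearest to them. The log2 fold change was 1.38 with a standard error of 0.31 (limma adjusted p = 0.0210), and means were 0.934 ± 0.463 and 0.269 ± 0.0262 FPKM. Few reads lay behind Tlr6, with 13 to 17 in each control and 37 to 113 in each METTL3-HKD liver. Tlr1, the other partner of TLR2, had 1.41, 1.03, 0.529 and 0.772 FPKM in METTL3-HKD livers and 0.631, 0.555, 0.806 and 0.650 FPKM in METTL3-Flox livers. The groups overlapped, since METTL3-HKD liver 3 was the lowest of all 8 livers. Its log2 fold change was 0.38 (95% interval -0.22 to 0.99, limma adjusted p = 0.357).

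Tlr1 and Tlr6 are neighbours on chromosome 5 and share long identical stretches, which bears on how reads were assigned. Of 3332 windows of 50 bases in Tlr1 transcripts, 454 also occur in Tlr6, and how reads that match several genes were counted is not given in the sources used here, so the split between the pair is uncertain. The longest identical stretch of their coding sequences is 229 bases, at coding positions 1468 to 1696 of Tlr1 and 1507 to 1735 of Tlr6 (GENCODE M21, both genes on the minus strand of GRCm38). It is shown because a read that lies inside it cannot be told apart between the genes.
Shared: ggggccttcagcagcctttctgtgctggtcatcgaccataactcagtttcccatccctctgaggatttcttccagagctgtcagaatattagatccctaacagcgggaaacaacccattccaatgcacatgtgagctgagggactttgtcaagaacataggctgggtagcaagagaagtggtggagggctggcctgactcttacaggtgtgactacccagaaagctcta
Tlr1 lies at chr5:64924679-64933563 and Tlr6 at chr5:64952031-64960097. On the same build Tlr2 lies at chr3:83836272-83841767, Tlr4 at chr4:66827584-66930284, Tlr5 at chr1:182954788-182976044 and Tlr13 at chrX:106143204-106160493. Ly96 lies at chr1:16688051-16709611, Myd88 at chr9:119335934-119341411 and Irak3 at chr10:120141648-120202130. No window of 50 bases in Tlr2, Tlr5, Tlr13, Cd14 or Ly96 was found in another gene.

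The remaining receptors were those for bacterial ribosomal RNA and flagellin. Tlr13 had 6.33, 3.31, 2.57 and 2.75 FPKM in METTL3-HKD livers and 1.67, 1.44, 1.73 and 1.33 FPKM in METTL3-Flox livers. The groups did not overlap, and METTL3-HKD liver 1 was again the highest. The means were 3.74 ± 1.75 and 1.54 ± 0.189 FPKM, with a log2 fold change of 1.14 and a standard error of 0.26 (limma adjusted p = 0.0231). Tlr5 had 0.944, 1.16, 1.11 and 1.02 FPKM in METTL3-HKD livers and 0.602, 1.27, 0.783 and 0.895 FPKM in METTL3-Flox livers. The highest liver for Tlr5 was METTL3-Flox liver 2, and the groups overlapped. The log2 fold change was 0.27 (95% interval -0.20 to 0.74, limma adjusted p = 0.403). Tlr5 was the 1 member for which METTL3-HKD liver 1 was the lowest of its group.

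The adaptor and the inhibitor lay within overlapping ranges. Myd88 had 14.1, 11.4, 8.53 and 10.5 FPKM in METTL3-HKD livers and 10.03, 8.58, 7.81 and 8.51 FPKM in METTL3-Flox livers. METTL3-HKD liver 3 fell among the controls. The log2 fold change was 0.33 (95% interval -0.013 to 0.68, limma adjusted p = 0.171), and the interval leaves out a doubling, a log2 fold change of 1. Irak3 had 2.39, 1.87, 1.51 and 0.907 FPKM in METTL3-HKD livers and 0.689, 1.13, 0.859 and 0.760 FPKM in METTL3-Flox livers. METTL3-HKD liver 4 lay below METTL3-Flox liver 2, and the other 3 METTL3-HKD livers lay above each control. The log2 fold change was 0.83 (95% interval 0.20 to 1.45, limma adjusted p = 0.0729), and the exact permutation test gave p = 0.0571. Without METTL3-HKD liver 4 Irak3 passed both thresholds (adjusted p = 0.0278), where its adjusted p over 18 alternatives ran from 0.0278 to 0.179. Exons of Myd88 overlap those of Acaa1a by 290 bases and exons of Irak3 overlap those of Tmbim4 by 192 bases, on the opposite strand. Acaa1a averaged 44.4 FPKM and Tmbim4 23.7 FPKM, and the strand setting of the counting is not given in the sources used here, so some reads of these pairs may be shared.

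**Figure D2:**
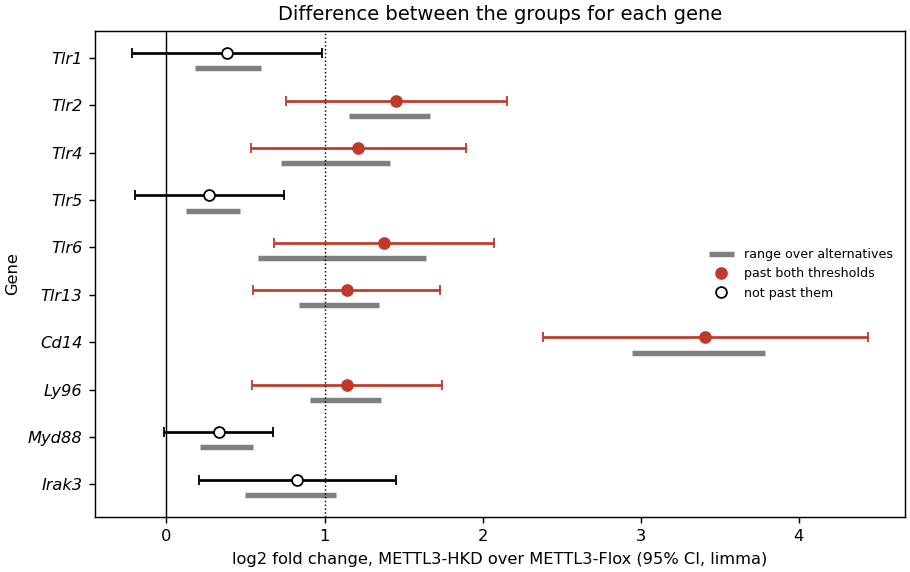
Log2 fold change of each gene, METTL3-HKD over METTL3-Flox (x axis), with its 95% confidence interval from limma, filled where both thresholds were passed, and a grey bar for the range over the alternatives. The dotted line marks a log2 fold change of 1, and Cd14 lies apart from the rest at 3.41.

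The order of the levels differed between the groups. In METTL3-Flox livers Myd88 was the highest at a mean of 8.73 FPKM, followed by Cd14, Ly96, Tlr2, Tlr13, Tlr5, Irak3, Tlr4, Tlr1 and Tlr6. Between neighbours in this order the ranges over livers separated only between Cd14 and Ly96, between Tlr13 and Tlr5, and between Tlr1 and Tlr6. In METTL3-HKD livers Cd14 came first and its range did not overlap that of the next gene, Myd88 at 11.1 FPKM, while the ranges of all other neighbours overlapped. Tlr4 moved from the eighth place to the sixth. METTL3-HKD liver 1 was the highest of its group for 8 of the 10 genes and METTL3-HKD liver 3 was the lowest for 6. The summed level of the 6 receptors was 23.7, 12.5, 10.1 and 13.3 FPKM in METTL3-HKD livers and 5.09 to 6.83 FPKM in METTL3-Flox livers.

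The other Toll-like receptors were examined next. Of Tlr3, Tlr7, Tlr8, Tlr9, Tlr11 and Tlr12, 5 reached the minimum level and 0 passed the test, and their log2 fold changes ran from -0.83 to -0.066. Tlr12, which recognizes a protozoan protein and was the most abundant of them, had 1.98 ± 0.436 FPKM in METTL3-HKD livers and 3.74 ± 1.41 FPKM in METTL3-Flox livers (limma adjusted p = 0.0667).

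Genes of ligands known to act on these receptors included 5 of 9 that were upregulated, with a median log2 fold change of 1.12. S100a9 (log2 fold change 4.68, limma adjusted p = 0.00207) and S100a8 (4.44, 0.00414) encode the subunits of calprotectin and are also neutrophil marker genes. Tnc, a matrix protein, rose from 0.101 ± 0.0482 to 2.01 ± 1.09 FPKM, and Hspd1, a mitochondrial chaperonin, rose from 144 ± 13.4 to 323 ± 97.8 FPKM. Fn1, a fibronectin that hepatocytes secrete and the most abundant of the list by mean level, had a log2 fold change of -0.25 and did not pass the test. Of 7 genes for ligand handling and receptor trafficking, 0 passed both thresholds, and 4 were lower by the adjusted p alone, as were 6.63% of all genes. Among these was Hsp90b1, a chaperone that Toll-like receptors need to fold, at 259 ± 24.4 against 388 ± 84.1 FPKM (limma adjusted p = 0.0485), and it stayed under 0.05 in 6 of 18 alternatives (0.0327 to 0.173).

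Signalling genes inside the cell were taken by role. None of the 4 other adaptors passed the test, where Tirap, which links TLR2 and TLR4 to MYD88, had a log2 fold change of 0.15. Of 17 kinase and ubiquitin ligase genes 0 passed both thresholds, 2 were higher and 1 was lower by the adjusted p alone, and Chuk, a kinase of the NF-kB pathway, had a log2 fold change of 0.015. Among 8 transcription factors Irf7, which drives interferon genes, was downregulated with a log2 fold change of -1.94 (limma adjusted p = 0.0348), although its groups overlapped because METTL3-HKD liver 2 had 29.8 FPKM, and it kept an adjusted p under 0.05 in 8 of 18 alternatives (0.0174 to 0.0994). By the adjusted p alone 2 factors of this list were higher, with no overlap between the groups. They are named after their values were seen, and both encode NF-kB subunits: Nfkb1 (log2 fold change 0.67, limma adjusted p = 0.0136) and Nfkb2 (0.82, 0.0264). The other NF-kB subunit genes of the list, also named after their values were seen, did not pass: Rela (0.19, 0.219), Rel (0.70, 0.0607) and Relb (1.07, 0.0621). Of 9 negative regulators 1, Tnfaip3, which ends NF-kB signalling, was upregulated, from 1.24 ± 0.339 to 3.06 ± 1.32 FPKM (limma adjusted p = 0.0286).

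Target genes were listed under the MyD88 arm and under the TRIF arm, the interferon-inducing branch. These are list names only, and which signal or cell type lay behind the changes of these genes was not tested. In the MyD88 arm list 9 of 11 genes were upregulated, with a median log2 fold change of 3.41. Il1b, an inflammatory cytokine, had 11.2 to 69.7 FPKM in METTL3-HKD livers and 1.01 to 2.69 FPKM in METTL3-Flox livers. The chemokine Cxcl2 had 9.16 to 79.0 against 0.0601 to 0.628 FPKM, Ccl4 had 6.29 to 29.9 against 0.107 to 0.598 FPKM, and Ptgs2, the inducible cyclooxygenase, had 0.907 to 8.02 against 0 to 0.0541 FPKM. Ptgs2 held at most 4 reads in any METTL3-Flox liver. Cxcl1, the most abundant gene of the list, overlapped between groups at 58.0 ± 28.0 and 55.3 ± 41.5 FPKM (limma adjusted p = 0.783). In the TRIF arm list 0 of 9 genes passed, with a median log2 fold change of -0.69. Isg15, a ubiquitin-like protein induced by interferon, had 21.95 ± 16.4 and 30.8 ± 7.44 FPKM (limma adjusted p = 0.265). METTL3-HKD liver 2 stood apart in the TRIF arm list, with a summed level of 113.9 FPKM against 33.5 to 34.8 FPKM in the other METTL3-HKD livers. Those other livers lay below the 55.8 to 92.0 FPKM of the METTL3-Flox livers. Without METTL3-HKD liver 2 Isg15 had a limma adjusted p of 0.0221, where its range over 18 alternatives was 0.0221 to 0.470. Over all 79 tested genes of these pathway lists, 15 were upregulated and 1 was downregulated, and 6 were downregulated without METTL3-HKD liver 2.

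**Figure D3:**
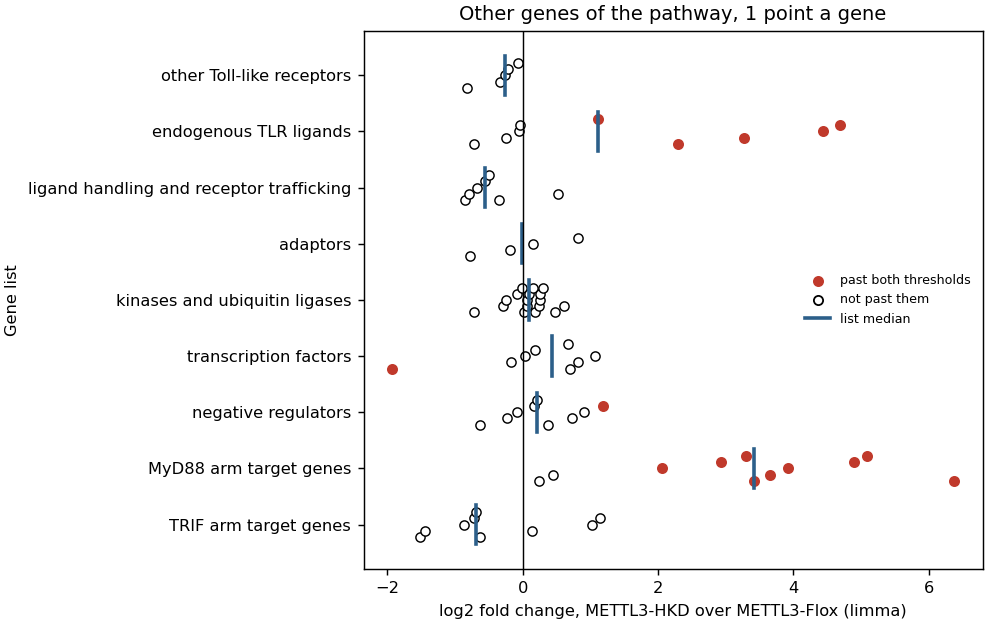
Log2 fold change, METTL3-HKD over METTL3-Flox (x axis), of the other genes of the pathway by list (y axis), 1 point a gene, shifted vertically for visibility, filled where both thresholds were passed, with a line at each list's median. The MyD88 arm target genes have a median of 3.41 and the TRIF arm target genes one of -0.69, with 3 of these 9 above 0.

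Markers of some cell types rose as members did, and those of others fell. Of 11 tested neutrophil markers 9 were upregulated with a median log2 fold change of 3.75, and their summed level ran from 338 to 1657 FPKM in METTL3-HKD livers and from 13.4 to 46.5 FPKM in METTL3-Flox livers. Ly6g, a defining neutrophil gene, had no read in 3 METTL3-Flox livers and 2 reads in the other, and Csf3r, a receptor on neutrophils, had a log2 fold change of 3.12 (limma adjusted p = 0.000511). In the METTL3-HKD livers the neutrophil sum, the sum of the 6 receptors and Cd14 had the same order, with liver 1 first, then 4, 2 and 3, and so did the sums of the cholangiocyte markers, the erythroid markers and the MyD88 arm target genes. Other lists did not share it, with livers 1, 2, 4 and 3 for the monocyte sum and 2, 1, 4 and 3 for the Kupffer cell sum. Of the 6 receptors taken singly, only Tlr2 had the order of the neutrophil sum. Tlr4 and Tlr6 had livers 1, 4, 3 and 2, Tlr1 and Tlr13 had 1, 2, 4 and 3, and Tlr5 had 2, 3, 4 and 1. Ly96 had livers 2, 1, 4 and 3, the order of the Kupffer cell sum. In the METTL3-Flox livers the orders differed, with livers 1, 2, 4 and 3 for the neutrophil sum, 2, 1, 3 and 4 for the receptors and 1, 2, 3 and 4 for Cd14. Of 10 monocyte markers 3 were upregulated, among them Chil3 (log2 fold change 4.19, limma adjusted p = 0.00389), and their sums ran from 231 to 400 against 180 to 268 FPKM. A large part of these sums is F10, which hepatocytes make and which had a log2 fold change of -0.54. It had 111 ± 19.8 FPKM in METTL3-HKD livers and 161 ± 21.8 FPKM in METTL3-Flox livers, so the sums do not follow the other markers of the list closely. The monocyte marker Ly6c2 did not pass (limma adjusted p = 0.229). Of 12 Kupffer cell markers 4 were downregulated, among them Clec4f (-1.31), Cd5l (-1.37) and Folr2 (-1.39), with sums from 144 to 287 against 284 to 674 FPKM. The adjusted p stayed under 0.05 in 8 of 18 alternatives for Clec4f (up to 0.0749) and for Cd5l (up to 0.0860), and in 15 of 18 for Folr2. The part of these cell types in the members' changes was not tested.

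Other cell type lists were uneven. Of 10 hepatocyte markers 1, Cyp8b1, a bile acid enzyme, was downregulated (log2 fold change -2.27), and Alb had 18252 ± 3308 and 18426 ± 676 FPKM. Of 10 sinusoidal endothelial markers 4 were lower by the adjusted p alone, as were 6.63% of all genes, among them Dnase1l3 (-0.78). Clec4g (-0.27) and Stab2 (-0.16) did not pass the test. Among 10 stellate cell markers 1 was upregulated and 1, Colec11 (-1.34), was downregulated, while Lrat had -0.88 and Dcn 0.11. Of 7 cholangiocyte markers 6 were upregulated, among them Krt19 (1.58) and Spp1 (1.68), with sums of 119 to 371 against 52.6 to 77.7 FPKM. T or NK cell markers (Trac, Nkg7) gave 0 calls among 6, B or plasma cell markers 1 among 4 (Jchain, 2.26; not Cd79a, 0.15), and dendritic cell markers 0, where Clec9a had -0.93. Of 3 tested erythroid genes 2, Hba-a1 (3.20) and Hbb-bs (3.28), were upregulated, with list sums of 165 to 525 against 44.4 to 98.2 FPKM. The other tested gene of this list had a log2 fold change of -0.98 and did not pass the test. The part of these lists in the members' changes was not tested.

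**Figure D4:**
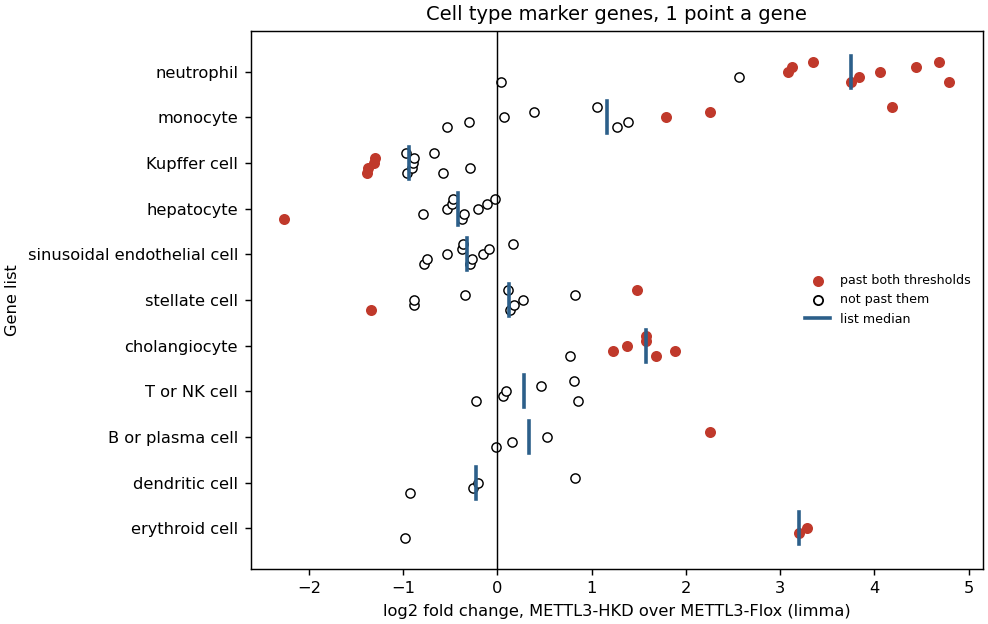
Log2 fold change, METTL3-HKD over METTL3-Flox (x axis), of cell type marker genes by list (y axis), 1 point a gene, shifted vertically for visibility, filled where both thresholds were passed, with a line at each list's median. Neutrophil markers have a median of 3.75 and Kupffer cell markers one of -0.94.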

How the data were processed

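RNA was taken from whole liver and libraries were made with a SMARTer mRNA-Seq kit, per the labels. The authors deposited FPKM for each gene and library. The submitters' processing notes name the build GRCm38 (mm10), while the aligner, the counter, the annotation, the strand setting and the treatment of reads matching several genes are not given in the sources used here. FPKM times gene length gave whole reads for 100% of non-zero values (within 0.05 read). Size factors did not overlap between the groups (1.06 to 1.18 in METTL3-HKD and 0.835 to 0.950 in METTL3-Flox livers), so levels had been scaled between libraries before deposit. Of the listed genes 54409 are in GENCODE M21, and 98.26% of these have the same coordinates.

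The minimum for testing was a mean of 0.1 FPKM over the 8 livers. Tests used limma 3.58.1 in R 4.3.3 on log2(FPKM + 0.1) with a trended prior variance, and p-values were adjusted by Benjamini-Hochberg over all genes tested. A fold change on this scale understates the change of genes with low levels. A call needed both an adjusted p below 0.05 and a change of 1 or more on the log2 scale, up or down. Tested on simulated data of 16301 genes with 200 changed, the fit called 199 of these and 11 others. The planted changes were larger than those of all members but Cd14. They lay only in genes above a higher minimum level, with the same fixed spread for every gene. The counts therefore do not show how well changes of the members' size are found. Single values used exact permutation tests in scipy 1.17.1. The groups are genotypes from breeding, and which mice shared a litter is not given in the sources used here, so litter was not modelled. The p-values set the difference between the groups against the spread between these livers.

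The members and lists were chosen with earlier results of these data known. Named genes are the members, Mettl3, in each pathway list up to 4 genes past both thresholds and the most abundant gene, and in each marker list up to 3 (the first detected, the most abundant and that with the smallest adjusted p), together with genes that overlap a member. Genes given values outside this rule are marked as named after their values were seen. Alternatives changed the pseudocount, the minimum, the scaling, the trend, weights, the replicate block, the gene set or the test, or left out each liver. Counting from reads covers counting error only. All 8 libraries were used.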

Additional observations from a re-analysis of the deposited data

Results flagged for a closer look

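Groups were examined for the members, Mettl3 and the pathway and marker genes named by rule. Among these 112 groups of 4 livers, 8 held 1 liver that stood apart from the other 3 by Dixon's ratio (95% level). Chance flags about 1 in 20 such groups. None of the 10 members was among them. S100a8 had 519.4 FPKM in METTL3-HKD liver 1, against 99.6 to 157.8 FPKM in the others of its group. Chil3 had 79.38 FPKM in the same liver, against 20.5 to 28.1 FPKM. Irf7 had 29.82 FPKM in METTL3-HKD liver 2, against 6.06 to 9.87 FPKM, and Isg15 had 46.59 FPKM there, against 12.7 to 14.7 FPKM. In METTL3-Flox liver 1 Clec4f had 103.1 FPKM, against 45.1 to 52.5 FPKM, and Ly6g had 0.1494 FPKM, from 2 reads, against 0 in the others. In METTL3-Flox liver 2 Hba-a1 had 22.26 FPKM, against 8.19 to 9.24 FPKM, and Trac was the lowest at 0.2648 FPKM, against 0.493 to 0.532 FPKM. Their causes were not tested.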

How the results depend on the processing

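All genes called: 782 were upregulated and 253 downregulated, and these were 317 and 88 with a pseudocount of 1 FPKM. With a minimum mean of 1 FPKM 450 were upregulated, with no minimum 163 were downregulated, and leaving out 1 liver gave 487 to 957 upregulated and 94 to 336 downregulated genes. Scaling to the reads on genes put the median over all genes at 0.197 on the log2 scale and gave 1044 upregulated and 133 downregulated genes, so that 88.7% of calls were upregulated, against 75.6%. Upregulated members numbered 2 with a pseudocount of 1 FPKM and 1 to 6 when 1 liver was left out, and those past the adjusted p alone 1 to 6. Tlr1, Tlr5 and Tlr6 were not tested with a minimum mean of 1 FPKM, and all members kept a positive log2 fold change in every alternative that tested them. Past the adjusted p, Cd14 stayed in 18 of 18 alternatives, Tlr2 in 17 of 18 and Tlr4 in 12 of 18. Among these alternatives, median-of-ratios scaling divided each library by the same factor, 1.0063. Its outcome was therefore nearly fixed in advance.

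Downregulated pathway genes numbered 1, and 2 with a minimum mean of 1 FPKM, array weights, protein-coding genes only or voom on rebuilt reads, 0 with no minimum, scaling to reads on genes or no mean-variance trend, and 0 to 6 when 1 liver was left out. Upregulated marker genes numbered 22, 14 with a pseudocount of 1 FPKM and 14 to 20 when 1 liver was left out. Downregulated marker genes numbered 6, 3 with no minimum, 3 with scaling to reads on genes, and 2 to 8 when 1 liver was left out.

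The sign reversed for genes with small differences. Scaling to reads on genes gave 0.047 for Mettl3, 0.19 for Alb and 0.055 for Stab2, and array weights gave 0.031 for Alb and -0.17 for Cd79a. Leaving out 1 liver gave -0.035 to 0.088 for Chuk, -0.11 to 0.68 for Cxcl1, -0.13 to 0.055 for Alb, -0.041 to 0.32 for Dcn, -0.22 to 0.41 for Nkg7 and -0.20 to 0.43 for Cd79a. The cause was not tested.

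The replicate block, which treats livers of the same number as a pair, gave 616 upregulated and 200 downregulated genes and 4 upregulated members, with adjusted p of 0.0510 for Tlr6 and 0.0546 for Ly96. The numbers share only a label: the correlation of deviations between same-numbered livers ran from -0.0838 to 0.0711, and 1 of 4 METTL3-HKD livers correlated best with its own number.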

Other observations

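Ratios between members within a liver were formed after their values were seen and are given without a test. Cd14 over Ly96 was 25.3, 5.42, 7.43 and 15.7 in METTL3-HKD livers 1 to 4 and 1.81 to 3.40 in METTL3-Flox livers, with no overlap. Tlr6 over Tlr1 was 0.519 to 1.44 in METTL3-HKD livers and 0.372 to 0.509 in METTL3-Flox livers, although the split of reads between these genes is uncertain. Tlr2 over Tlr4 was 2.36 to 4.63 and 1.94 to 4.47, and Irak3 over Myd88 was 0.0864 to 0.176 and 0.0687 to 0.131, both with overlap.

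The letters GGACT, a common context of N6-methyladenosine, occurred at a median of 1.56 per kilobase of transcript in the 10 members and 1.06 per kilobase over 13096 genes. In order, Tlr6 had 2.45, Cd14 2.44, Tlr2 2.32, Myd88 2.04, Tlr1 1.65, Tlr13 1.48, Tlr4 1.47, Irak3 0.969, Tlr5 0.625 and Ly96 0 per kilobase. Genes that rose and genes that did not pass the test stood on both sides of the median over all genes. A match of letters does not show a methylated site, and methylation was not measured in these libraries.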
